A study of Mus musculus with 22 samples.

Results

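To describe active chromatin at the genes of granulocyte and monocyte progenitors, 10 listed genes were followed in H3K27ac ChIP-seq peak lists of mouse myeloid progenitors. They are the regulators Spi1, Irf8 and Gfi1, the receptors Csf1r and Csf3r, the granule protein genes Mpo, Elane, Prtn3 and Ctsg, and the membrane protein gene Ms4a3, out of 21938 protein-coding genes. The rule for the list names their roles and uses no measured value, though it was drawn up with earlier results of these data known. Each gene was given a window of its body and 50 kb on each side, and every peak in the window was assigned to 1 of 3 classes: within 2.5 kb of a transcription start site (TSS) of the gene, near a TSS of another gene only, or distal, which means over 2.5 kb from every annotated TSS. The windows held 49 peaks of 23410 in replicate 1, 67 of 25963 in replicate 2 and 69 of 23758 in replicate 3.

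KL cells, the lineage-negative, cKit-positive and Sca1-negative progenitors of the bone marrow, had been sorted from male C57BL/6 mice of the genotype scl-Cre-ERT +; Bcorfl/y at 20 weeks after tamoxifen. At 3 to 6 months of age they had been injected intraperitoneally with 1 mg of tamoxifen on each of 5 days. The Cre recombinase of these mice is driven by a stem cell enhancer of the Scl gene and, once tamoxifen activates it, cuts out exons 9 and 10 of Bcor, a gene on the X chromosome (BcorΔE9-10 cells). All 3 libraries carry this genotype and treatment. The other 19 of the 22 samples in the series were not analysed here. Genotypes were therefore not compared, and the KL gate holds granulocyte-monocyte, megakaryocyte-erythroid and earlier myeloid progenitors together. A bulk peak therefore cannot tell more acetylation per cell from more cells of a type.

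Acetylation of histone H3 at lysine 27 marks promoters and enhancers in use. In the marrow, PU.1 (encoded by Spi1) and C/EBPα open the granulocyte and monocyte programme, after which IRF8 favours monocytes and GFI1 favours granulocytes. The receptors for M-CSF (Csf1r) and G-CSF (Csf3r) then support monocytes and neutrophils respectively, while myeloperoxidase and the serine proteases neutrophil elastase, proteinase 3 and cathepsin G are packed into the primary granules of promyelocytes.

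Replicates 1, 2 and 3 had depths of 18, 18.9 and 19.3 M reads, solved from the peak lists, and the smallest number of fragments under a called summit was 8, 8 and 9. A gene without a peak is thus one without detectable enrichment at this depth, and not one shown to lack the mark. Fold enrichment is the ratio of fragments at a summit to the local background within a library, with 1 added to each, as the authors' peak caller gave it. In replicate 3 the fragments are first scaled by 0.983. It is the height of a summit and not a sum over a gene. The highest summit is given, so a gene with more annotated starts or a longer body has more peaks to take it from, and how this bears on the order of genes was not tested. The markers of the sort were looked up. Only 43.9% of all protein-coding genes had a TSS peak in all 3 libraries, and no Sca1-positive cells were analysed. A missing peak therefore cannot show that the sort worked. Kit, the positive marker, had TSS fold enrichments of 9.90, 9.59 and 9.83, and Ly6a, which encodes the excluded Sca1, had no TSS peak in any library and a distal peak in 1. Cd5, whose product is among the lineage markers that the sort removes, nevertheless had TSS fold enrichments of 5.12, 4.06 and 5.85 and a distal peak in every library, and the cause was not tested.

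The promoters of the granule genes, of Ms4a3 and of Irf8 are shown first, since they include starts with a peak and starts without one. Promoter sequences from RefSeq (GRCm38.p6) run from 250 bases before to 50 after a start and were found for 8 of the 10 genes, in 10 entries. Capitals mark matches, on either strand, to GAGGAA (ETS factors such as PU.1), TGTGGT (RUNX), TTGCNNAA (C/EBP), AACTG (MYB) or AGATAA, the motif of GATA factors.

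Mpo promoter, chr11:87793534-87793833, plus strand: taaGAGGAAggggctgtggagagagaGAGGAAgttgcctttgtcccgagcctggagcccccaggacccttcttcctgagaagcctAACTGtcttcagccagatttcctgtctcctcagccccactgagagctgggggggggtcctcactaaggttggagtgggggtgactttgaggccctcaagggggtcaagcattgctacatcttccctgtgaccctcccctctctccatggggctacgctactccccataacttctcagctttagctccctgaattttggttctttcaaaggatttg

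Prtn3 promoter, chr10:79879417-79879716, plus strand: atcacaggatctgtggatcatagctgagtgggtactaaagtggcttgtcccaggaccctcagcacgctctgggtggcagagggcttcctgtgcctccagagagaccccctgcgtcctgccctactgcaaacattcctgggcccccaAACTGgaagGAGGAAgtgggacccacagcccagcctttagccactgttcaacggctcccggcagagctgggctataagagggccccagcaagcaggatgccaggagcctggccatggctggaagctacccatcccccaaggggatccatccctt

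Elane promoter, chr10:79886062-79886361, plus strand: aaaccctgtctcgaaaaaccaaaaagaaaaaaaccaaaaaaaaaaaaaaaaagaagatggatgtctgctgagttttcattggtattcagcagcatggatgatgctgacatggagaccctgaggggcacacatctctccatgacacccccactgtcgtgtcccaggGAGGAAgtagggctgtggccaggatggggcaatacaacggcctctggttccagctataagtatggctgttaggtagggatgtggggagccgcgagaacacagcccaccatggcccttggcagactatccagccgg

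Ctsg promoter, chr14:56102525-56102824, minus strand: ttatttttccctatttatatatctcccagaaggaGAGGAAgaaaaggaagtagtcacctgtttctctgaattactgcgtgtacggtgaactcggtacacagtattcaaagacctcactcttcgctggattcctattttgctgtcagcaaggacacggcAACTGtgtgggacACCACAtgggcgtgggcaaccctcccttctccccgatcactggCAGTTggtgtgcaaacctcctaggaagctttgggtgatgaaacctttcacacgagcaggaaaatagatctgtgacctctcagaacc

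Ms4a3 promoter, chr19:11640802-11641101, minus strand: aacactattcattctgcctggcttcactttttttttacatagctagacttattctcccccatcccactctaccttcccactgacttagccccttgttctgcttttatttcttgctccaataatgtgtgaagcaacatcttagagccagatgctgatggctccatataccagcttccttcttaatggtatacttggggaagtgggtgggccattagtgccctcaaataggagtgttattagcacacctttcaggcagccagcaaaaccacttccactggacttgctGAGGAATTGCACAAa

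Irf8 promoter, chr8:120736108-120736407, plus strand: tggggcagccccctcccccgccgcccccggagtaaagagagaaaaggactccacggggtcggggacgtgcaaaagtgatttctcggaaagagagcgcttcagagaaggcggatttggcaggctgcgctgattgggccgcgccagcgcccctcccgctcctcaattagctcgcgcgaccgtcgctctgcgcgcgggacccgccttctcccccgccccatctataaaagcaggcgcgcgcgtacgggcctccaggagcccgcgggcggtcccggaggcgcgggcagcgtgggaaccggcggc

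GAGGAA was found in 6 of the 10 promoter entries (60%), against 28.3% of the 32841 promoters of the same length. The 6 are those of Csf3r, Mpo, Elane, Prtn3, Ctsg and Ms4a3, and both entries each of Irf8 and Gfi1 lacked these letters. In Gfi1 1 pair of matches overlapped, a C/EBP and a MYB match. Of the remaining motifs, AACTG was in 6 of 10 entries (44.8% of all promoters), TTGCNNAA in 2 (10.8%), TGTGGT in 1 (16.8%) and AGATAA in none (11.2%). A match is a description of the letters and not a binding site. The Irf8 promoter shown was the richest in CpG, with a GC content of 70.0% and a ratio of observed to expected CpG of 1.03, above 95.5% of promoters. That ratio was 0.0871 at Mpo, 0.145 at Prtn3, 0.314 at Elane, 0.464 at Ctsg and 0 at Ms4a3. A peak overlapped the promoter window of Csf3r and the first Gfi1 window in all 3 libraries, that of Ctsg in replicates 2 and 3 and that of Mpo in replicate 1 only. No peak overlapped the windows of Irf8, Elane, Prtn3 or Ms4a3 in any library.

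Acetylation at the start was found for most of the genes but was of modest height. A TSS peak was present in all 3 libraries for 7 of the 10 (Spi1, Gfi1, Csf1r, Csf3r, Mpo, Prtn3 and Ctsg), in 1 library for Elane and in none for Irf8 and Ms4a3. Of all protein-coding genes, 43.9% had a TSS peak in all 3. Among genes with such a peak, the median TSS fold enrichment of the listed genes was 4.78 (7 genes), 6.65 (7) and 7.36 (8) in replicates 1, 2 and 3, against 9.07, 9.26 and 10.7 for all genes. The mean over libraries was 6.26 ± 1.33 (SD, n = 3), against 9.69 ± 0.908 for all genes. Within each library no listed gene reached the median of all genes with a TSS peak: the highest place was that of Ctsg in replicate 2, above 44.3% of them, and the lowest that of Elane in replicate 3, above 0.705%. Among these shallow peaks the count depends on the threshold, and only peaks with a −log10 q of at least 5 left 3 of 10 genes (Spi1, Csf3r and Mpo), against 39.2% of all genes.

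**Figure D1:**
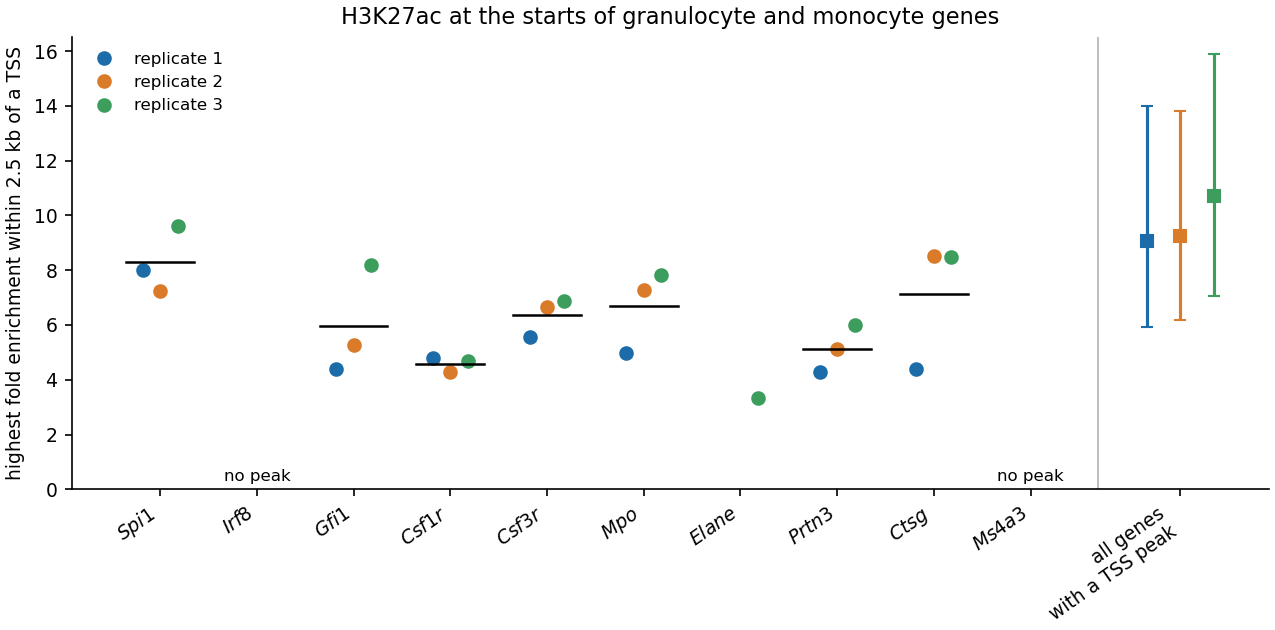
Highest fold enrichment within 2.5 kb of a TSS (vertical axis) for each gene, with a point for each library and a line at the mean where all 3 libraries had a peak. Squares and bars at the right are the median and quartiles of all protein-coding genes with a TSS peak in each library, with medians of 9.07, 9.26 and 10.7, and every listed gene lies below the median of its library.

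Spi1 was the highest of the regulators. Its strongest TSS region (chr2:91096195-91098820) lay in an intron at an internal start, 14.7 kb into the gene, with fold enrichments of 8.0, 7.25 and 9.62 (8.29 ± 1.21, SD, n = 3). They rested on 36, 28 and 46 fragments, with Poisson 95% intervals of 25.2 to 49.8, 18.6 to 40.5 and 33.7 to 61.4. At the 5′ end of Spi1 a region at chr2:91081655-91082978 reached 5.18, 5.50 and 9.34 on 18, 21 and 56 fragments. The internal start thus had the higher fold enrichment in every library, but fewer fragments in replicate 3. Spi1 lies on the plus strand at chr2:91082390-91115756, and 3 distal regions of all 3 libraries flanked its 5′ end, 1 upstream by 3.36 kb and the others in an intron 3.84 and 4.53 kb downstream. The distal region with the highest mean (chr2:91089127-91089678, intronic) was found in replicates 2 and 3, at 4.87 and 5.88.

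Gfi1, a zinc finger repressor of granulocyte precursors, carried 3 adjoining TSS regions in all 3 libraries. Its highest TSS fold enrichment was 4.39, 5.26 and 8.19 (5.95 ± 1.99), with 13, 19 and 29 fragments. The region with the highest mean (chr5:107725556-107726014) had its summit 0.236 kb into the gene, at 4.09, 5.26 and 8.19. Replicate 3 was the highest, and the intervals for replicates 1 (6.92 to 22.2) and 3 (19.4 to 41.6) overlapped. The gene lies on the minus strand of chromosome 5 (107716657 to 107726036).

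Irf8 gave the least signal of the regulators. No library had a TSS peak or a distal peak in its window (gene body chr8:120736358-120756694, plus strand), and the window held 1 peak in replicate 1 and none in replicates 2 and 3. That peak had a fold enrichment of 4.10 on 11 fragments and lay 20.7 kb upstream of Irf8, within 2.5 kb of the start of the annotated gene Gm24239. The nearest peak to any Irf8 start was 20.7, 67.3 and 50.3 kb away.

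The receptors differed in where their peaks lay. For Csf3r the strongest region (chr4:126024050-126025454) covered the first start, its summit 0.378 kb into the gene, at 5.56, 6.65 and 6.89 (6.36 ± 0.710). No library had a distal peak in the Csf3r window. For Csf1r the TSS fold enrichment was 4.78, 4.30 and 4.67 (4.58 ± 0.252), the lowest mean and the smallest spread of the 7 genes with a TSS peak in every library. These Csf1r peaks were intronic. The region shared by all 3 libraries (chr18:61107780-61108270) was at 4.78, 4.30 and 4.23. Its summit lay 7.45 kb from the 5′ end and 2.16 kb from the closest internal start. The 4.67 of replicate 3 came from another region (chr18:61105917-61106254), found in that library only, 0.157 kb from an internal start. The spread above thus mixes summits of different regions. With a TSS window of 1 kb Csf1r no longer had a TSS peak in every library. Distal peaks of Csf1r appeared in replicate 2 (highest 3.97) and replicate 3 (4.88) but not in replicate 1, and 5 of the 6 distal regions lay within the gene body or at its 3′ end. The distal region with the highest mean (chr18:61120989-61121216, intronic) was found in replicate 3 only, at 4.56.

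Among the granule genes, Ctsg and Mpo had a peak over an annotated start in every library, though not over the promoter window in each. Prtn3 was weaker and Elane was detected once. Ctsg, which encodes cathepsin G, had TSS fold enrichments of 4.39, 8.53 and 8.47 (7.13 ± 2.37) from 12, 28 and 30 fragments, and replicate 1 was the low library. Its interval of 6.20 to 21 fragments overlapped that of replicate 2 (18.6 to 40.5) and, narrowly, that of replicate 3 (20.2 to 42.8). The strongest region by mean, chr14:56101136-56103046, held the highest summit in replicates 2 and 3 and had 4.31 on 14 fragments in replicate 1. The summit of 4.39 in replicate 1 lay in chr14:56100481-56100980, so the intervals above compare summits of different regions. The strongest region, merged over libraries, extended over the 5′ end of the gene, which runs on the minus strand from 56102574 to 56099881.

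Mpo, the gene for myeloperoxidase, had TSS fold enrichments of 4.97, 7.28 and 7.83 (6.69 ± 1.52), again lowest in replicate 1. The gene lies at chr11:87793581-87804413 on the plus strand. Acetylation spread into the gene, and the strongest TSS region (chr11:87794493-87795536) had its summit in an intron 1.56 kb from the 5′ end. The TSS peaks together covered 1475, 2168 and 3509 bp.

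Prtn3, the gene for proteinase 3, reached 4.28, 5.13 and 6.00 (5.13 ± 0.860). Its strongest region by mean (chr10:79877501-79877859; 4.28, 5.13 and 5.01) lay 1.97 kb upstream of the closest protein-coding Prtn3 start, within an intron of a longer annotated Prtn3 transcript. A second region in all 3 libraries (3.63, 4.0 and 6.0) lay at the outermost Prtn3 start, which is also within 2.5 kb of a Plppr3 start, so its acetylation cannot be given to either gene. The distal region of the Prtn3 window (chr10:79840929-79841326) was found in replicate 3 only, at 3.20, 33.3 kb upstream. Elane, the gene for neutrophil elastase, is the neighbour of Prtn3 on the plus strand (chr10:79886247-79888215). Its only TSS peak was in replicate 3, at 3.34 from 16 fragments, against a local background of 4.0 fragments. In replicates 1 and 2 the nearest peaks lay 8.40 and 3.33 kb from the Elane start. Its strongest distal region (chr10:79936677-79937069), in an intron of Arid3a 50.7 kb downstream, reached 3.75 in replicate 2 and 4.33 in replicate 3. The peak of replicate 3 was also within 2.5 kb of an annotated Prtn3 start, and the Elane and Prtn3 windows overlap, so that 9, 14 and 13 peaks were counted in both.

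Ms4a3, a membrane protein gene of early granulocyte-monocyte cells, had no TSS peak. Its window (gene body chr19:11629496-11640851, minus strand) held 1 peak, an intronic distal peak of replicate 1 with a fold enrichment of 4.40 from 16 fragments, 5.48 kb into the gene. In replicates 2 and 3 the nearest peaks to an Ms4a3 start were 122 and 130 kb away.

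In the order of mean TSS fold enrichment the 7 genes ran Spi1, Ctsg, Mpo, Csf3r, Gfi1, Prtn3 and Csf1r. For every pair of neighbours in this order the mean log2 ratio was smaller than its SD over the libraries. The same direction in all 3 libraries held for 1 of 6 neighbouring pairs, Gfi1 above Prtn3 (mean log2 ratio 0.17 ± 0.24, SD, n = 3). Its exact permutation p, two-sided and by sign flips, was 0.25, below which 3 libraries cannot go. For the other pairs the exact permutation p was between 0.5 and 0.75. After Benjamini-Hochberg adjustment over the 6 pairs every exact permutation p was 0.75. The pairs were picked from the values tested and 3 libraries cannot give a low p, so the test cannot decide whether neighbours differ. The ends of the order, also picked from the same values, were not tested and were apart by 0.85 ± 0.17 on the log2 scale.

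**Figure D2:**
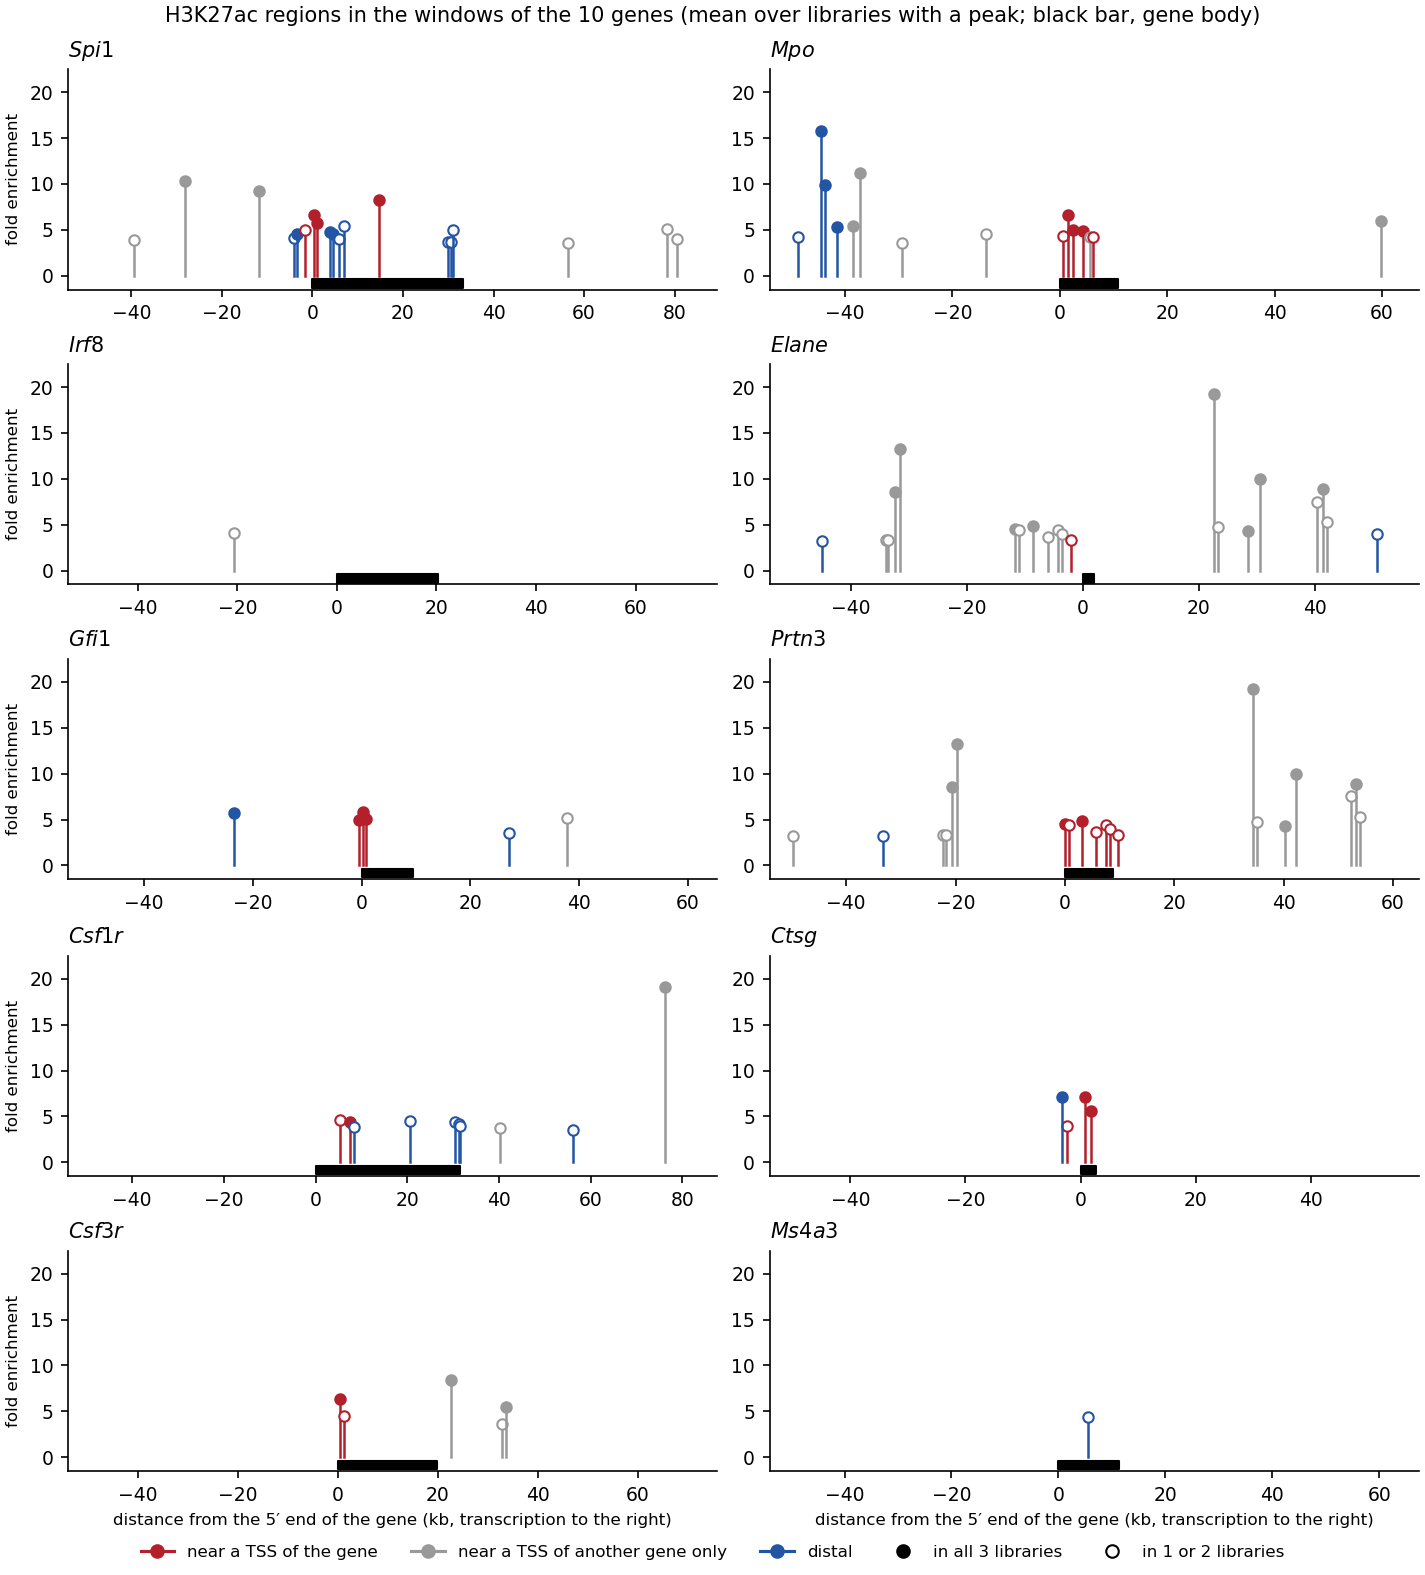
Merged H3K27ac regions by distance of the summit from the 5′ end of each gene (horizontal axis, kb) and mean fold enrichment over the libraries with a peak (vertical axis). Colours give the class, filled points are regions of all 3 libraries, and the black bar is the gene body, with the Irf8 and Ms4a3 windows holding 1 region each and the tallest distal region of the 10 windows upstream of Mpo.

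Distal acetylation was found in all 3 libraries for 4 of the 10 genes, Spi1, Gfi1, Mpo and Ctsg, in 1 or 2 libraries for Csf1r, Elane, Prtn3 and Ms4a3, and in none for Irf8 and Csf3r. Of all protein-coding genes, 18.3% had a distal peak in their window in all 3. The class depends on the distances chosen: 7 genes qualified with a TSS window of 1 kb (23.6% of all genes), 2 (Gfi1 and Mpo) with 5 kb (13.8%), and 2 (Spi1 and Ctsg) with windows of 20 kb around the gene (10.3%). The median of the highest distal fold enrichment was 5.68 (5 genes), 5.48 (6) and 5.62 (7), against 4.44, 4.41 and 5.16 for all genes with a distal peak.

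The highest distal region of the 10 windows lay upstream of Mpo, between protein-coding genes. At chr11:87748203-87749542, with its summit 44.4 kb from the Mpo 5′ end, fold enrichment was 14.7, 14.7 and 18.1, above 99.0%, 99.2% and 99.4% of the highest distal peaks of all genes in each library. It rested on 50, 49 and 59 fragments, with intervals of 37.1 to 65.9, 36.3 to 64.8 and 44.9 to 76.1. All 3 intervals lay above those of the strongest Mpo TSS peak in the same library, 7.65 to 23.5, 13.8 to 33.3 and 15.4 to 35.7. The ratio of distal to TSS fold enrichment was 2.95, 2.02 and 2.31, a mean log2 ratio of 1.26 ± 0.28 (SD, n = 3), with the distal peak higher in 3 of 3 libraries (exact permutation p = 0.25, the lowest possible value).

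This region was the first of 3 adjoining distal regions in all 3 libraries, followed by chr11:87749733-87751766 (9.07, 9.45 and 11.2) and chr11:87751846-87752371 (4.40, 5.24 and 6.39). The next regions towards Mpo were at the start of Mir142 and its host gene Mir142hg, the microRNA locus of blood cells, where fold enrichment reached 6.84, 11.1 and 15.7. None of the 4 distal regions in the Mpo window had Mpo as its closest protein-coding start. For the tallest it was Tspoap1, 11.3 kb away. The window is set by distance, and which gene the region acts on was not measured. The 300 bases around this summit and around the distal summit of Gfi1 are given (genome sequence from RefSeq, plus strand, same capitals). The first is the tallest distal summit. The second is one whose closest protein-coding start is that of the listed gene, though it lies within the body of Evi5.

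Mpo distal summit, chr11:87749062-87749361: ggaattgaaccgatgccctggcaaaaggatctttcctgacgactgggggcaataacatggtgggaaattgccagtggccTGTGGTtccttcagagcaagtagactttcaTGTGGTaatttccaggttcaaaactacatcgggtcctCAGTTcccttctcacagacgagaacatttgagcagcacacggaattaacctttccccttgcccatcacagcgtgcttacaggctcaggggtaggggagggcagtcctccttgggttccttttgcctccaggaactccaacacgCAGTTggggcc

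Gfi1 distal summit, chr5:107749300-107749599: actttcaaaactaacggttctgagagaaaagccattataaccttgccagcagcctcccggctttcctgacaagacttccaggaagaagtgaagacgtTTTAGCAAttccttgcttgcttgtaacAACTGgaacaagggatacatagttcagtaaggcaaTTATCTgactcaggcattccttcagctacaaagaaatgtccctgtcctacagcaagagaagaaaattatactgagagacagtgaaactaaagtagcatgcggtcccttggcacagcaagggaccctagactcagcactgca

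The Mpo summit held 2 matches to TGTGGT, a motif in 23.6% of the 14757 distal regions of the same length, and 2 to AACTG (55.8%). The Gfi1 summit held 1 match each to TTGCNNAA (11.6% of distal regions), AACTG and AGATAA (absent from 87.5%). The distal summit of Ctsg held none of the 5 motifs, and GAGGAA was in none of the 3, against 31.4% of distal regions.

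For Gfi1 the distal region was intronic to the neighbouring gene Evi5, 23.4 kb upstream of the Gfi1 5′ end, and its fold enrichment of 5.68, 6.00 and 5.62 varied less than that of the Gfi1 start. The distal peak was higher than the TSS peak in replicates 1 and 2 and lower in replicate 3 (mean log2 ratio 0.01 ± 0.49; exact permutation p = 1.00). The Ctsg distal region, chr14:56105719-56106355, lay 3.31 kb upstream of the gene at 6.74, 6.67 and 8.10, and exceeded the TSS peak in replicate 1 only (0.07 ± 0.50; exact permutation p = 1.00). At Spi1 the order was the opposite of that at Mpo. Its highest distal fold enrichment, 5.66, 4.96 and 6.49, was below the TSS value in 3 of 3 libraries (−0.54 ± 0.04; exact permutation p = 0.25). These distal summits lay in a different region in each library, so the small spread is not that of a single region. The summit of replicate 2 (chr2:91113192-91113499) was in a region found in that library only, whose closest protein-coding start was that of Mybpc3. Adjusted over the 4 genes by Benjamini-Hochberg, the exact permutation p was 0.5 for Mpo and Spi1 and 1.0 for Gfi1 and Ctsg.

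**Figure D3:**
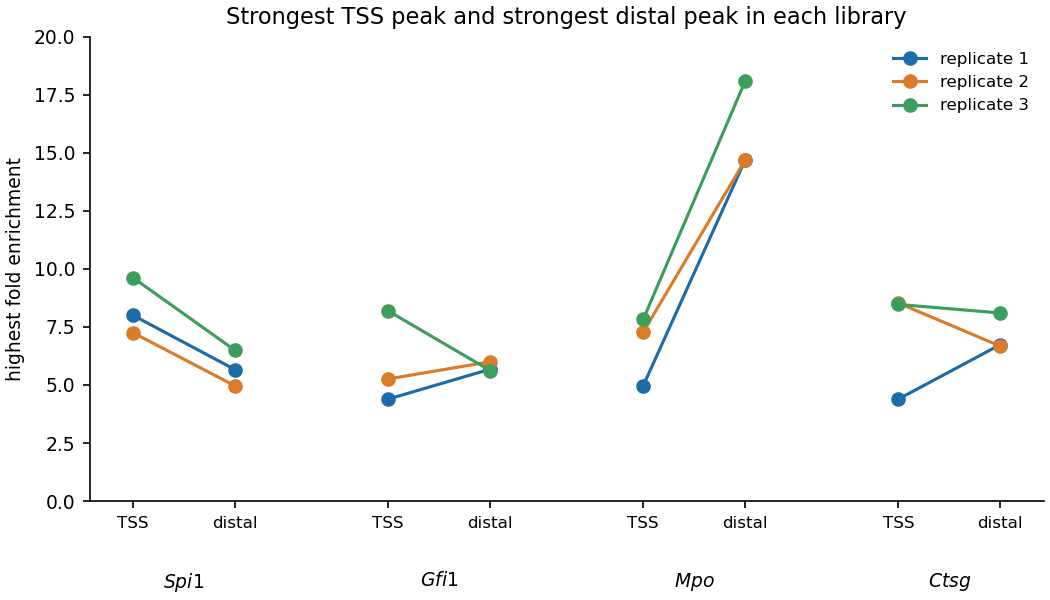
Highest fold enrichment (vertical axis) of the TSS peaks and of the distal peaks in each library for the 4 genes with both in every library, joined by library. The lines rise at Mpo to 14.7, 14.7 and 18.1, fall at Spi1, and cross at Gfi1 and Ctsg.

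Peaks of neighbouring genes made up 19, 24 and 24 of the peaks in the windows. The strongest region of the Csf1r window was the start of Hmgxb3 (21.8, 16.5 and 19.0), that of the Csf3r window the start of Mrps15 (7.0, 10.0 and 8.39) and that of the Elane and Prtn3 windows the start of Med16 (17.6, 18.8 and 21.2). In the Spi1 window the start of Psmc3 was strongest (11.2, 8.80 and 10.8). At Spi1, Csf1r, Csf3r, Elane and Prtn3 the neighbour's start was higher than every peak of the listed gene in all 3 libraries.

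Of 82 merged regions in the windows, 37 had a peak in all 3 libraries (45.1%, Wilson 95% interval 34.8% to 55.9%), 15 in 2 and 30 in 1. Over all regions the share in 3 libraries was 41.3%. By class, in the windows, it was 15 of 26 regions at starts of the listed genes, 14 of 31 at other starts and 8 of 25 distal regions. All regions were not split by class, so whether this difference is particular to the listed genes was not tested. Without replicate 1, the library with the fewest peaks in the windows, the share found in both remaining libraries was 64.9%, against 55.3% of all regions. With a −log10 q of at least 5 the share in 3 libraries was 42.0%, below the 55.1% of all regions.

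Stitching neighbouring peaks into clusters and ranking these by fold enrichment times length gave a super-enhancer (SE), a cluster past the point where the ranked curve has slope 1, for 1 of the 10 genes. The paper ranked enhancers of these libraries by tag count with the program Homer and reported far fewer SEs. The class used here is therefore broader than that of the paper. Of the 10281 genes with a TSS peak in at least 2 libraries, 17.4% were assigned an SE in at least 2, and in that set the listed genes numbered 7, of which 1 had an SE. The Spi1 cluster held 11, 11 and 12 peaks and ranked 298 of 11779, 182 of 12327 and 160 of 11525, and it took in the start of Slc39a13 upstream. When TSS peaks were left out before stitching, no listed gene kept an SE in at least 2 libraries. The best Mpo clusters ranked 5218, 2668 and 1820 and those of Ctsg 5168, 1877 and 2392, outside the 1383, 1083 and 1190 clusters that passed. The tall region upstream of Mpo was not assigned to Mpo, since other starts were closer. Elane was assigned no cluster in any library, and a stitching distance of 20 kb added Prtn3.

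Replicate 1 gave the lowest TSS fold enrichment for 5 of the 7 genes with a TSS peak in every library (Gfi1, Csf3r, Mpo, Prtn3 and Ctsg), or 71.4%. It was also the lowest library for 45.8% of the 9637 genes with a TSS peak in all 3. The largest gap was that of Ctsg, above 9.34% of genes in replicate 1, 44.3% in replicate 2 and 35.9% in replicate 3, and Mpo was above 15.9%, 34.8% and 31.3%. Csf1r went the other way, at 13.1%, 8.40% and 7.31%. Markers of erythroid and megakaryocyte cells, which share the KL gate, had a summed TSS fold enrichment of 36.3, 25.9 and 44.9 in the same libraries, with 6, 4 and 6 of 12 markers detected and Gata1 and Gfi1b at no TSS peak in any. The part of the make-up of the sorted cells in these differences was not tested.

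Other gene lists were set beside the 10 genes, though peaks of bulk cells do not place a gene in a cell type. Of all protein-coding genes, 43.9% had a TSS peak in all 3 libraries, the share to hold against each list below. Of 24 other genes of granulocyte-monocyte progenitors, 14 (58.3%) had a TSS peak in all 3 libraries, 6 in 1 or 2 and 4 in none. The highest was Cebpb, a C/EBP factor, with 14.0, 14.2 and 19.5 (15.9 ± 3.12), and the lowest with a peak in all 3 was Ly86, a surface partner of a Toll-like receptor family member, with 3.95, 3.20 and 2.95 (3.37 ± 0.519). Cebpa, the partner of PU.1 in early commitment, had 6.83, 8.93 and 8.13. The 4 without a TSS peak in any library were Fcgr3, Cfd, Lyz2 and Clec12a, of which Fcgr3 and Lyz2 had a distal peak in all 3.

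Of 11 genes of late neutrophil granules, which are made after the primary granules, none had a TSS peak in all 3 libraries and 1 had one in a single library (Ngp, 5.29 in replicate 2). Of the 12 erythroid and megakaryocyte markers, 4 had a TSS peak in all 3 libraries, the highest by mean being Tfrc, the transferrin receptor gene (7.90, 8.48 and 12.6), which was above Tal1 (8.19, 10.0 and 10.6) in replicate 3 only, and the lowest Itga2b (3.32, 2.67 and 2.95). None of the 6 mast cell, basophil and eosinophil markers and none of 5 non-haematopoietic markers had a TSS peak in any library, and of 5 lymphoid markers 1 had a TSS peak in all 3. Distal peaks in all 3 libraries were found for 9 of the 24 other granulocyte-monocyte genes and 1 of the 11 late granule genes. They were also found for 1 of the 12 erythroid and megakaryocyte, 1 of the 6 mast cell, basophil and eosinophil and 2 of the 5 lymphoid markers. No non-haematopoietic marker had one in all 3, and 18.3% of all protein-coding genes did.

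**Figure D4:**
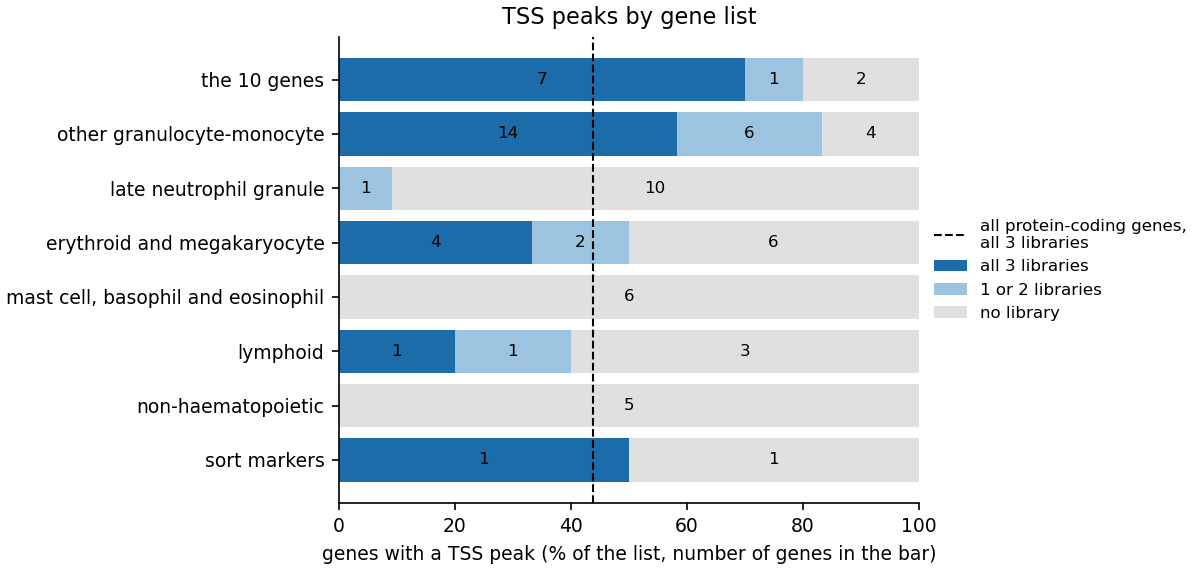
Share of each gene list (horizontal axis, percent) with a TSS peak in all 3 libraries, in 1 or 2, or in none, with the number of genes in each bar and a dashed line at the 43.9% of all protein-coding genes with a TSS peak in all 3. The 10 genes (7 in all 3) and the other granulocyte-monocyte genes (14 of 24) lie above the line, and the late neutrophil granule genes (none of 11) below it.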

How the data were processed

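H3K27ac ChIP-seq was examined in 3 libraries of BcorΔE9-10 KL cells, grouped by their sample titles. The authors trimmed reads with cutadapt 1.7, aligned them with Bowtie2 to GRCm38, removed duplicates and called peaks in each library with MACS2 2.1.1 (versions per the submitters' processing notes). The control and the caller's settings are not given in the sources used here. The deposited lists give each summit a fold enrichment (a ratio), the −log10 of its p-value and q-value, and a score equal to the whole part of 10 times the −log10 q, which was not used. All peak statistics are the authors' own.

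Where several rows shared an interval, the peak took the highest fold enrichment among them, and TSS and gene bodies came from GENCODE M21. Fragments and background at a summit were solved from fold enrichment and p, which worked for 100% of rows within 0.01 in −log10 p, against 3.60% to 6.90% with p shuffled. Depth assumes fragments of 200 bp and a genome of 1.87 Gb. Intervals on fragments are exact Poisson 95% intervals and, since duplicates were removed without molecular identifiers, cover counting error only. Regions are peaks of the 3 libraries merged where they overlap by at least 1 bp. The test on log2 ratios was an exact permutation over sign flips of the 3 libraries, two-sided, and cannot give a p below 0.25. The methods give 3 mice of this genotype for ChIP-seq, and the labels do not tie a library to an animal, so part of the spread may be technical. Super-enhancers were called on peaks stitched over a distance between the 5 and 20 kb tried as alternatives. Code was tested on simulated peaks (Python 3.11.15, numpy 2.4.6, pandas 2.3.3, scipy 1.17.1).

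The 10 genes and all lists were chosen with earlier results of these data known, so counts over them are descriptions. All 10 genes are named, with the strongest TSS and distal region of each by mean fold enrichment. Of each list the counts and the highest and lowest genes are given, and Kit and Ly6a are given as markers of the sort. Of neighbouring genes, those whose start is the strongest peak of a window are named. The neighbours Slc39a13, Mir142hg, Evi5 and Tspoap1, the genes Cebpa, Cd5 and Tal1, and the lists' genes without a TSS peak, were named after their values were seen.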

Additional observations from a re-analysis of the deposited data

How the results depend on the processing

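The number of genes with a TSS peak in every library was 3 with a −log10 q of at least 5 (39.2% of all genes), and 6 or 7 under all other alternatives (43% to 45.5%), with 7 each time a replicate was left out. The number with a distal peak was 7 with a TSS window of 1 kb (23.6% of all genes), 2 with 5 kb (13.8%) and 2 with a 20 kb flank (10.3%), and between 4 and 6 when a replicate was left out (20.1% to 22.1%). Peaks per library in the windows were 39.0 with a 20 kb flank, 90.3 with 100 kb and 37.3 with the stricter q, and 58.0 to 68.0 when a replicate was left out. The share of regions in every library was 28.0% with a reciprocal overlap of 50%, against 31% of all regions. With the stricter q it was 42.0%, against 55.1% of all regions. Both are the reverse of the main setting, where the windows had the higher share (45.1% against 41.3%). When a replicate was left out, the share was 53.4% to 64.9%, against 50.7% to 55.3% of all regions. Fewer libraries then have to share a region. The median TSS level was 19.0 fragments for the listed genes, against 35.3 for all genes, a ratio of 0.534 in place of 0.644 for fold enrichment, and it was below that of all genes under every alternative. Left out in turn, replicates gave medians of 5.71 to 7.0 and ratios to all genes of 0.606 to 0.702. With fold enrichment times length summed over peaks in place of height, the mean log2 ratio of distal to TSS signal was −1.14 at Gfi1 and −1.03 at Ctsg, where it was near 0 by height. The cause was not tested. At Mpo and Spi1 the direction was kept under each alternative that gave a value, with means of 1.11 to 1.39 and −0.56 to −0.52 when a replicate was left out. The same ranges were −0.18 to 0.28 at Gfi1 and −0.21 to 0.28 at Ctsg. Alternatives that left a library without a distal or TSS peak gave no ratio (Spi1 and Ctsg with a 5 kb TSS window, Gfi1 and Mpo with a 20 kb flank, Gfi1 and Ctsg with the stricter q). The number of genes with an SE was 2 with stitching over 20 kb and 0 with TSS peaks left out, and 1 each time a replicate was left out. No paired analysis was possible because a single group was analysed. At depths of 18 to 19.3 M reads, summits under 8 fragments are not in the lists, so the genes without peaks are below detection.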
